A study of Homo sapiens with 12 samples.

Results

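The core autophagy machinery comprised 39 genes whose proteins start, shape, lipidate, load and close the autophagosome. They were taken from the known pathway, in a choice made with earlier results of these data known. Each was looked up among the annotated array probes by current or older symbol. All 39 had at least 1 probe, 61 probes in all among 47323 with values, and 22 of the genes had a single probe. Each gene was represented by its brightest probe. Probes were tested if they averaged at least 6.52 on the log2 scale, the median of all probe means. This left 38 of the 39 genes among 12714 tested genes, with TFEB, at 6.46, outside.

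Gene expression was profiled on single-colour bead arrays in MDA-MB-231, an established triple-negative human breast cancer cell line. Cells of both groups were transfected with 30 nM of a locked nucleic acid (LNA) gapmer, an antisense oligonucleotide that directs RNase H to the RNA it binds, and incubated for 24 h. In 6 samples the gapmer targeted the long noncoding RNA CYTOR (LINC00152), and in the other 6 it was a control LNA. Of the CYTOR LNA arrays 1 was in batch 1 and 5 in batch 2, and the control arrays were split 3 and 3. The labels name 1 cell line and 1 LNA against the target, and whether replicates were separate cultures is not stated. The p-values therefore measure only spread among these arrays, and that spread may be technical.

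Macroautophagy encloses cytoplasm in a double membrane and delivers it to the lysosome. The ULK1 kinase complex receives nutrient signals and starts the process, a class III phosphatidylinositol 3-kinase complex marks the growing membrane, and WIPI, ATG2 and ATG9 proteins bring lipid to it. Enzymes related to the ubiquitin system then attach ATG8 proteins, the LC3 and GABARAP families, to that membrane, where cargo receptors bind them. Breast cancer cells use the pathway to recycle components under starvation and stress.

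CYTOR was lower where its LNA was given. Its brightest probe had a mean of 7.83 ± 0.12 (SD, n = 6) in controls and was 2.15-fold lower in CYTOR LNA arrays, at 6.74 ± 0.10 (adjusted p = 8.0e-13 by limma). Arrays correlated at 0.991 to 0.998 with each other. Of the cell line's markers, VIM (mean 13.3), CAV1 (12.4), CD44 (12), AXL (11.8) and MSN (10.9) had bright probes, whereas SPARC (6.48) was below the median of probe means. CD44 fell by 0.21 at its brightest probe (limma adjusted p = 0.034), and its 2 other tested probes did not pass. Of 7 luminal markers 5 were tested and none passed: EPCAM (7.91) and ERBB2 (7.79) lay well above that median, CDH1 (6.52) stood at it and ESR1 (6.47) was below it. Of 5 leukocyte markers, the 2 tested were LYZ and CD14. CD14 rose by 0.33 at its brightest probe, with 0.10 in batch 1 and 0.42 in batch 2. Its other tested probe differed by 0.06 and did not pass (limma adjusted p = 0.40). PTPRC and CD3E were below the median of probe means (both 6.44). The list's mean level ran from 6.86 to 6.95 in CYTOR LNA arrays and from 6.78 to 6.92 in controls.

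Single genes in 5 steps of the pathway changed, in both directions. ATG7, WIPI1 and ATG14 fell after the CYTOR LNA, MAP1LC3A and ULK1 rose, and 33 of the 38 tested genes did not pass (limma with batch as a term, Benjamini-Hochberg adjusted p below 0.05 over 23662 probes). The 3 falls were 7.89% of the tested autophagy genes, beside 5.4% of all tested genes that fell. The 2 rises were 5.26%, beside 2.49% of all tested genes. With so few genes, chosen with earlier results known, neither these shares nor those below are read as a result about the pathway. The log2 difference was negative for 19 of the genes and positive for 19, with a median of 0.00017 against 0.0037 over all tested genes. At an unadjusted p below 0.05 the counts were 5 lower and 8 higher, 34.2% of the tested genes against 21.6% of all tested genes. In RNA from a whole culture, fewer cells of a kind and less RNA per cell cannot be told apart.

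**Figure D1:**
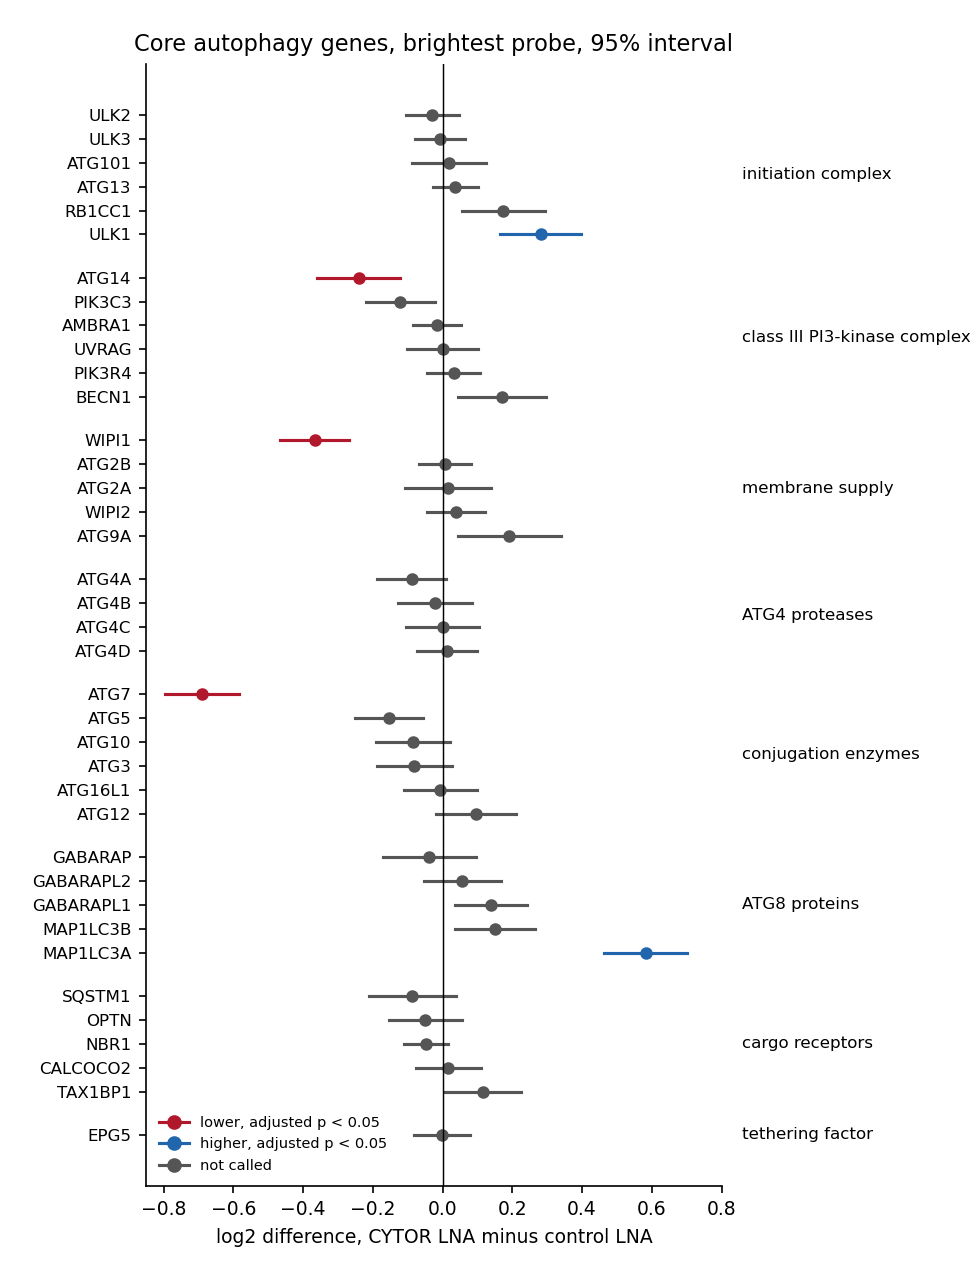
Log2 difference between CYTOR LNA and control LNA arrays (horizontal axis) for the 38 tested autophagy genes, grouped by role, from the limma fit with batch as a term; points are estimates from 12 arrays, bars their 95% intervals and colours the call. ATG7 at -0.69 and MAP1LC3A at 0.58 lie farthest from 0, and every role group holds genes near 0.

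The sequences just upstream of the called genes are shown because 4 of the 5 have a promoter entry and TFEB, a transcription factor of autophagy and lysosomal genes, recognises an E-box. Each line gives the 120 bases before the annotated start, 5′ to 3′ on the gene's strand, from RefSeq (GRCh38.p14). Capitals mark the E-box core CACGTG and the GC box GGGCGG on either strand, and no 2 matches overlap. The stretches are chr3:11272277-11272396 on the plus strand for ATG7, chr17:68457497-68457616 on the minus strand for WIPI1, chr14:55411831-55411950 on the minus strand for ATG14 and chr12:131894502-131894621 on the plus strand for ULK1.
ATG7: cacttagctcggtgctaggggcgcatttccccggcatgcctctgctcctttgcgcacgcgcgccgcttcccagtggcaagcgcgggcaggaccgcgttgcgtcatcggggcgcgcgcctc
WIPI1: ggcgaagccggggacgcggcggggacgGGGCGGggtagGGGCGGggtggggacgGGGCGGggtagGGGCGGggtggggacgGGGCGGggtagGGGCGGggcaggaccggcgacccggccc
ATG14: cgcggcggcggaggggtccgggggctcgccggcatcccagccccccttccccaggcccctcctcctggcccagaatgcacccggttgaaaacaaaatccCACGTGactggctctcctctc
ULK1: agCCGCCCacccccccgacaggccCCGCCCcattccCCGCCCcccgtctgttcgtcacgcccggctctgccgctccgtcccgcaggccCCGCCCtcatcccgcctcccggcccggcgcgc

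ATG14 holds 1 E-box, which begins 21 bases before the start. WIPI1, which fell, holds 6 GC boxes in a repeated stretch, and ULK1, which rose, holds 4. ATG7 holds neither motif. Of the 39 genes, 34 had an entry, with 44 windows since some genes have several starts. The E-box was found in 2 of the 44 windows, those of ATG14 and ATG3, or 4.55%, against 3.90% of all 35116 windows of the same length. The GC box was found in 26 windows, or 59.1%, against 34.0%. The windows in all cover 27305 genes, among them many not tested on these arrays, so the 2 sets are unlike. RB1CC1, UVRAG, ATG4D, MAP1LC3A and EPG5 had no entry. A match is a description of the letters and not a binding site.

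ATG7 showed the deepest fall of the machinery. It encodes the E1-like enzyme that activates both ATG12 and the ATG8 proteins, the entry point of the lipidation system. Control arrays ran from 7.79 through a median of 7.96 to 8.03, and CYTOR LNA arrays from 7.12 through 7.26 to 7.36. The groups did not overlap, and every CYTOR LNA array lay well below every control. The fall was 1.61-fold (log2 difference -0.69, SE 0.051, 95% interval -0.80 to -0.59, adjusted p = 5.7e-10), and p was 0.0022 in an exact two-sided permutation test, the lowest value that 924 splits of the arrays can give. Those splits ignored batch. Splits within batches gave an exact permutation p of 0.0045, the lowest value of 224 splits. ATG7 was the 47th largest fall among the 12714 tested genes. Within batch 2 the difference was -0.73, and within batch 1, with its 1 CYTOR LNA array, it was -0.60. The gene has a single probe, so no other probe checks the value, and it spans 304 kb on chromosome 3 (GRCh38.p14, 11272397 to 11576353).

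The other enzymes of the conjugation step did not pass. ATG5, which is joined to ATG12 to form part of the E3-like complex, came closest, with medians of 7.62 after the CYTOR LNA and 7.75 in controls. Its groups overlapped by a narrow margin, the highest CYTOR LNA array at 7.68 against the lowest control at 7.68. The difference of -0.15 (SE 0.047) had an adjusted p of 0.0503 by limma, at the threshold, and passed in 8 of 25 alternatives. ATG3, the E2-like enzyme for ATG8 proteins, differed by -0.08 and ATG10, the E2-like enzyme for ATG12, by -0.08. ATG16L1, which carries the conjugate to the membrane, differed by -0.01 and ATG12 itself by 0.10. Among the ATG4 proteases, which trim ATG8 proteins and also release them from membranes, no brightest probe passed by limma at the adjusted or an unadjusted 0.05, and all 4 differences lay between -0.09 and 0.01. A second ATG4A probe gave -0.12 and a second ATG4D probe 0.11, neither past the adjusted threshold, though both had an unadjusted p below 0.05 (0.030 and 0.037 by limma).

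MAP1LC3A rose, while ATG7, the enzyme that activates its protein, fell. It encodes LC3A, one of the ATG8 proteins that are coupled to phosphatidylethanolamine in the autophagosome membrane. Control arrays ran from 8.20 through a median of 8.25 to 8.40, and CYTOR LNA arrays from 8.70 through 8.84 to 8.95. The groups did not overlap. The rise was 1.5-fold (log2 difference 0.58, SE 0.058, 95% interval 0.46 to 0.70, limma adjusted p = 1.0e-07, permutation p = 0.0022, exact), the second largest among the 12714 tested genes. Within batch 2 the difference was 0.62, and within batch 1, with its 1 CYTOR LNA array, it was 0.48.

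The probe behind this rise, ILMN_1776188, is annotated to transcript NM_181509. A second probe annotated to the same transcript, ILMN_1711986, averaged 6.42 and 6.41 in the CYTOR LNA and control groups, and the probe for transcript NM_032514, ILMN_1772958, averaged 6.46 and 6.48. Both lay below the median of probe means and were not tested, so the rise rests on 1 probe of 3. The gene lies on chromosome 20 (GRCh38.p14, 34546844 to 34560345) and spans 13.5 kb.

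Of the 4 other ATG8 genes none passed by limma, and 2 of them, MAP1LC3B and GABARAPL1, were higher at an unadjusted p below 0.05. MAP1LC3B, which encodes the LC3 protein most used as an autophagosome marker, ran from 8.85 through 8.98 to 9.0 in controls and from 9.02 through 9.05 to 9.24 after the CYTOR LNA. Its groups did not overlap, yet the difference of 0.15 (SE 0.055) had an adjusted p of 0.12 by limma. It was 0.30 in batch 1, which has a single CYTOR LNA array, and 0.09 in batch 2. GABARAPL1 differed by 0.14 (SE 0.050, adjusted p = 0.11), with overlapping groups. GABARAPL2, at 0.06, and GABARAP, at -0.04, lay near 0. Over all 38 genes the groups did not overlap for 5, or 13.2%, against 6.76% of all tested genes.

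**Figure D2:**
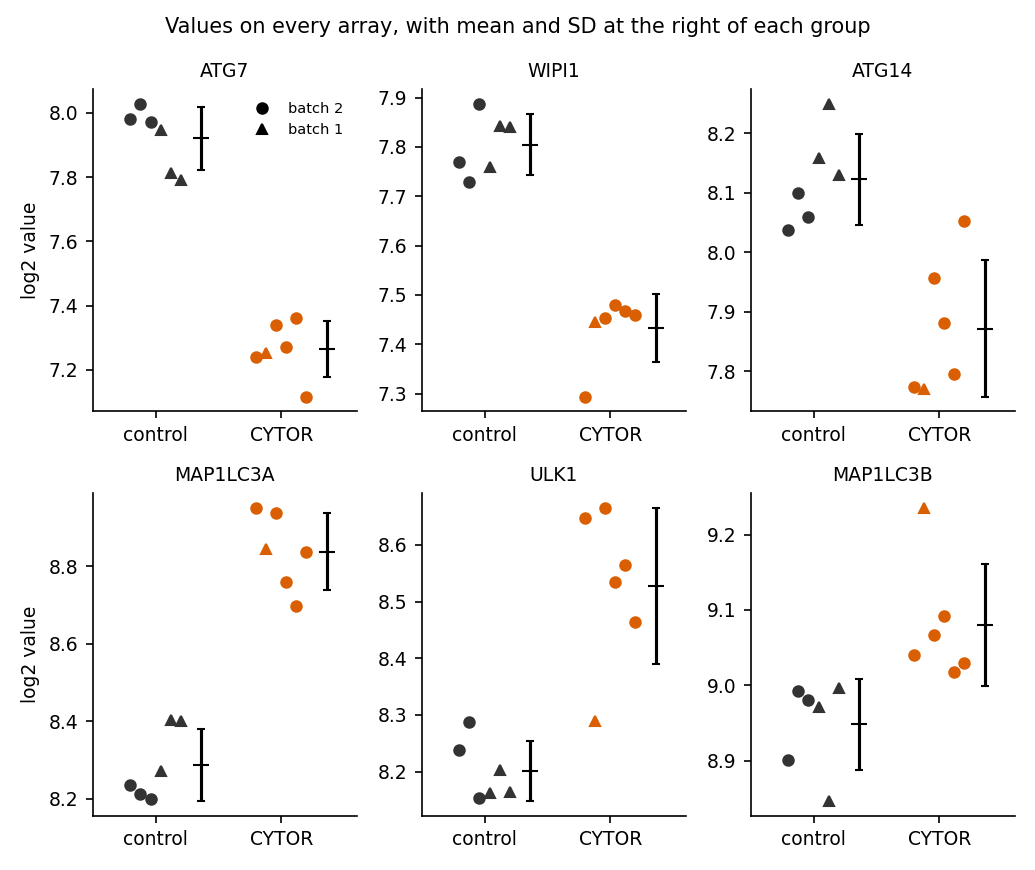
Log2 values on every array (vertical axis, a separate range in each panel) for the 5 called autophagy genes and MAP1LC3B, with control LNA arrays at left and CYTOR LNA arrays at right; circles are batch 2, triangles batch 1, and bars give the mean and SD of 6 arrays. ATG7, WIPI1 and MAP1LC3A separate with a wide gap, ATG14 overlaps, and the batch 1 CYTOR LNA array of ULK1 lies at the height of the controls.

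In the initiation complex ULK1 rose and the other 5 subunits and relatives did not pass. ULK1 is the serine/threonine kinase that starts autophagosome formation and is held inactive by mTORC1. Its brightest probe ran from 8.15 through a median of 8.18 to 8.29 in controls and from 8.29 through 8.55 to 8.66 after the CYTOR LNA. The groups touched without overlapping, since the lowest CYTOR LNA array stood less than 0.01 above the highest control. The rise was 1.22-fold (log2 difference 0.28, SE 0.056, 95% interval 0.16 to 0.40, adjusted p = 0.0019 by limma and exact permutation p = 0.0022). A second probe of ULK1 rose by 0.27 (SE 0.055, adjusted p = 0.0024 by limma), with overlapping groups, and the remaining probe was below the median of probe means.

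For ULK1 the brightest probe differed by 0.35 within batch 2 (limma adjusted p = 0.00011). Within batch 1 it differed by 0.11, a value that rests on the single CYTOR LNA array there, the lowest of its group. Whether the batches differ was not tested. The gene spans 28.5 kb on chromosome 12 (GRCh38.p14, 131894622 to 131923150).

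RB1CC1, also named FIP200, the scaffold of the ULK1 complex, differed by 0.17 (SE 0.058, adjusted p = 0.076 by limma), with overlapping groups. The accessory subunits ATG13 (0.04) and ATG101 (0.02) and the relatives ULK2 (-0.03) and ULK3 (-0.01) lay near 0. The ATG13, ULK2 and ULK3 probes were among the 7 tested autophagy genes with a mean below the 70th percentile of probe means, 6.78, and a difference may be understated at such dim probes.

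ATG14 fell in the class III phosphatidylinositol 3-kinase complex. Its protein directs the complex to sites of autophagosome formation and is absent from the endosomal version, which holds UVRAG in its place. Controls ran from 8.04 through a median of 8.12 to 8.25, and CYTOR LNA arrays from 7.77 through 7.84 to 8.05. The groups overlapped by 1 array, CYTOR LNA replicate 6. The fall was 1.18-fold (log2 difference -0.24, SE 0.058, 95% interval -0.36 to -0.12, adjusted p = 0.011 by limma and exact permutation p = 0.0043). Splits within batches gave an exact permutation p of 0.0089. The call was lost without the only CYTOR LNA array of batch 1, replicate 2 (difference -0.17, adjusted p by limma 0.099). That fit leaves only controls in batch 1, so with the batch term it gives the batch 2 difference. Within batch 2 alone the adjusted p by limma was 0.089, so both losses rest on the same contrast. Within batch 1 the difference was -0.41.

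No other subunit of this complex passed. The catalytic subunit PIK3C3 differed by -0.12 (SE 0.048, adjusted p = 0.15 by limma) and BECN1, the regulatory subunit Beclin 1, by 0.17 (SE 0.061, adjusted p = 0.11). BECN1 differed by 0.37 in batch 1 and by 0.09 in batch 2. The regulatory kinase subunit PIK3R4 (0.03), the regulator AMBRA1 (-0.02) and UVRAG, which differed by less than 0.001, lay near 0.

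Among genes that supply membrane WIPI1 fell. WIPI proteins bind phosphatidylinositol 3-phosphate on the growing membrane. Controls ran from 7.73 through a median of 7.81 to 7.89, and CYTOR LNA arrays from 7.29 through 7.46 to 7.48. The groups did not overlap. The fall was 1.29-fold (log2 difference -0.37, SE 0.048, 95% interval -0.47 to -0.27, adjusted p = 8.9e-06 by limma and exact permutation p = 0.0022). It was -0.37 in batch 2 and -0.37 in batch 1, where it rests on the 1 CYTOR LNA array. WIPI1 has a single probe and spans 36.2 kb on chromosome 17 (GRCh38.p14, 68421281 to 68457496).

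The relative WIPI2, which recruits ATG16L1, differed by 0.04, and the lipid transfer proteins ATG2A (0.02) and ATG2B (0.01) lay near 0. ATG9A, the lipid scramblase of the vesicles that seed the membrane, differed by 0.19 (SE 0.071, adjusted p = 0.12 by limma), with 0.11 at a second probe. It had the largest SD of the machinery within a group, 0.18 over the CYTOR LNA arrays, and differed by 0.51 in batch 1 and 0.06 in batch 2.

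The cargo receptors held no call. SQSTM1, which gathers ubiquitinated protein and is itself degraded by autophagy, averaged 12.1 in both groups and differed by -0.09 (SE 0.061, adjusted p = 0.49 by limma). The value was -0.30 in batch 1 and less than 0.01 below 0 in batch 2. TAX1BP1, an adaptor for protein aggregates and bacteria, differed by 0.12 (SE 0.053, adjusted p = 0.23). Its other tested probe differed by 0.18. OPTN and CALCOCO2, receptors for mitochondria and bacteria, differed by -0.05 and 0.02, and NBR1, a receptor for aggregates and peroxisomes, by -0.05. EPG5, the tether that brings autophagosomes to late endosomes, differed by less than 0.01. TFEB, the transcription factor, averaged 6.46 and 6.47 in the CYTOR LNA and control groups and was not tested.

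A gene that did not pass was not shown to be unchanged, and the intervals give what the arrays allow. Of the 33 genes tested and not called, 32 had a 95% interval that lay within a 1.25-fold change in either direction. The exception was ATG9A, whose interval ran from 0.04 to 0.34. The median half-width of these intervals was 0.10 on the log2 scale. Precision is limited by the number of arrays. In 7 of these genes, NBR1, AMBRA1, ATG13, ULK2, ULK3, ATG2B and EPG5, the probe mean lay below 6.78. A difference may be understated at such dim probes, so their narrow intervals may not bound the change in RNA.

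Other probes of a gene gave a check for 13 genes. Of the 13 further tested probes, 1 was called, the second ULK1 probe. Among the called genes this check reached ULK1 alone. ATG7, WIPI1 and ATG14 each have a single probe, and the other MAP1LC3A probes were not tested. The other 10 probes of the machinery fell below the median of probe means.

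**Figure D3:**
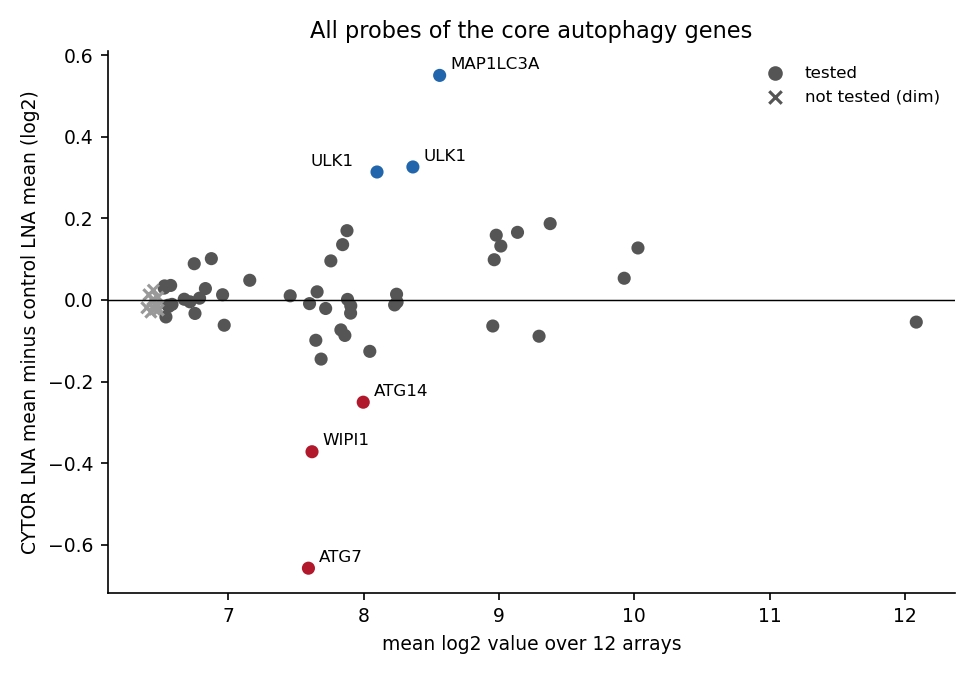
Mean log2 value over the 12 arrays (horizontal axis) and the difference between the CYTOR LNA and control LNA group means (vertical axis, log2, no batch term) for all 61 probes of the 39 genes; circles were tested, crosses were below the median of probe means, and colour marks called probes. Both ULK1 probes lie together, and the dim probes at left gather around 0.

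Gene length went with the direction of change in the whole data set, and the autophagy genes are given here by length with a bound of 100 kb that was chosen after the values were seen. Of 2137 tested genes over 100 kb, 14.4% fell and 1.82% rose, and of 10565 shorter genes 3.60% fell and 2.62% rose. The machinery holds 7 genes over 100 kb, all with a negative difference: ATG7, ATG5, PIK3C3, ATG10, AMBRA1, EPG5 and UVRAG. The signs of the last 3, which lay near 0, were not stable: AMBRA1 kept its sign in 22 of 24 alternatives, EPG5 in 16 of 24 and UVRAG in 18 of 25, and all 3 were positive within batch 1. Among all tested genes over 100 kb, 63.0% had a negative difference. Of the 7, ATG7 alone passed, while UVRAG, at 329 kb longer than ATG7, differed by less than 0.001 and ATG10, at 284 kb, by -0.08. WIPI1 and ATG14, at 36.2 and 45.4 kb, fell and lay under that bound, though above the median length of all tested genes, 27.2 kb. Of the 31 autophagy genes up to 100 kb, 12 had a negative difference, or 38.7%, beside 44.8% of all tested genes up to 100 kb. The part of gene length in the fall of ATG7 was not tested.

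Of the genes that act before and after the core machinery, drawn from 5 lists outside the 39, MTOR and BNIP3 changed. These 2 were 3.77% of 53 tested genes, below the 7.89% of all tested genes that were called. MTOR, the kinase that restrains ULK1 under nutrient supply, fell 1.49-fold (log2 difference -0.58, SE 0.058, adjusted p = 1.2e-07 by limma), from a mean of 8.40 in controls to 7.81 after the CYTOR LNA, with no overlap. The gene has a single probe, so no other probe checks the value. MTOR was the single call of 15 tested genes of mTORC1 and AMPK control, where 10 differences were positive and the median was 0.02. BNIP3, a receptor that marks mitochondria for removal, fell 1.13-fold (-0.17, SE 0.050, adjusted p = 0.038), the single call of 8 tested further receptors. That call passed in 15 of 25 alternatives. Leaving out any one of replicates 1, 3, 4 and 6 of the CYTOR LNA group, or of replicates 1, 2 and 6 of the controls, ended it, with differences of -0.18 to -0.14 and adjusted p from 0.052 to 0.15 by limma. Its relative BNIP3L differed by 0.16 (adjusted p = 0.14).

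In the remaining lists no gene passed by limma. Among 12 tested further autophagosome genes 4 were higher at an unadjusted p below 0.05, where 10.2% of all tested genes were higher and 11.4% lower, and the largest difference was that of EI24, an autophagy gene of the endoplasmic reticulum (0.27, SE 0.081, adjusted p = 0.0502). EI24 differed by 0.72 in batch 1 and by 0.09 in batch 2. Among 12 tested genes for fusion with the lysosome 2 were lower and 2 higher at that unadjusted threshold. RAB7A, the late endosomal GTPase, differed by -0.20 (adjusted p = 0.0501), VPS33A, a subunit of the HOPS tethering complex, by 0.13 (adjusted p = 0.097) and STX17, the SNARE of the autophagosome, by -0.10 with groups that did not overlap (adjusted p = 0.10). Among 6 tested genes of transcriptional control, which include TFE3, MITF, FOXO1 and FOXO3, the differences at the brightest probes lay between -0.09 and 0.04, and 0 passed an unadjusted 0.05 by limma. A second tested FOXO3 probe differed by 0.17, opposite in sign to the brightest (unadjusted p = 0.012, adjusted p = 0.12 by limma). The medians of the 5 lists lay between -0.07 and 0.07, beside 0.0037 over all tested genes.

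The single CYTOR LNA array of batch 1 had the highest value of its group for ATG9A, BECN1 and MAP1LC3B, and the lowest for SQSTM1. Differences within batch 1 carry that array's value alone, and they were 0.51 for ATG9A, 0.37 for BECN1 and -0.30 for SQSTM1. Within batch 2 none of these 3 passed by limma. The called genes kept their sign in both batches. ATG7, WIPI1 and MAP1LC3A passed in all 25 alternatives. ULK1 passed in 24 (not within batch 1, with its 1 CYTOR LNA array) and ATG14 in 23. The 25 are not independent checks. They include the fit within batch 1, where a pass or a loss is uninformative. The fits within batch 2 and without CYTOR LNA replicate 2 share 1 contrast.

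**Figure D4:**
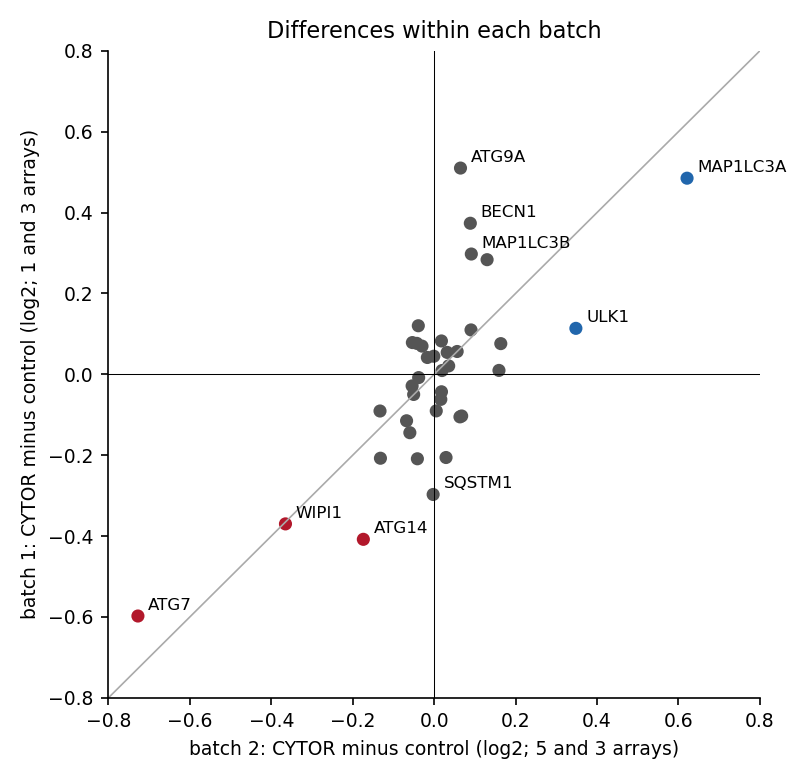
Difference between CYTOR LNA and control LNA means within batch 2 (horizontal axis, log2, 5 and 3 arrays) and within batch 1 (vertical axis, log2, 1 and 3 arrays) for the 38 tested autophagy genes; the grey line marks equal differences and colour the call over both batches. ATG7, WIPI1 and MAP1LC3A lie near the line, ULK1 is at 0.35 and 0.11, and ATG9A at 0.06 and 0.51.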

How the data were processed

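Total RNA of 12 samples of MDA-MB-231 cells was measured on bead arrays. The values are log2 intensities as deposited, in a table of 48107 probes by 12 arrays; 784 probes are empty. Per the submitters' processing notes lumi was used; its version and its settings for transformation and normalization are not stated there, so folds of dim probes may be understated. Groups, replicates and batches came from the labels. Probes were named through the platform annotation (30113 with 1 symbol, 8 with several and not named, 17202 with none) and updated by gene ID to RefSeq symbols (GRCh38.p14).

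Linear models of group plus batch, with 9 residual degrees of freedom, were fitted in limma 3.58.1 (R 4.3.3; lmFit, then trended eBayes). Calls were made at 0.05 after Benjamini-Hochberg adjustment over 23662 probes. A batch term passed an unadjusted 0.05 for 1.79% of probes, which is below 5%. The deposited values may therefore already have been adjusted for batch. The labels and notes do not state that, and if it was done, p-values of fits without the batch term may be too small. Exact permutation tests were two-sided and, unless said otherwise, split the arrays without regard to batch. Splits within batches gave an exact permutation p of 0.0045 for ATG7, WIPI1, MAP1LC3A and ULK1, the lowest value possible. For ATG14 they gave 0.0089. These values do not set the called genes apart. The same splits gave an exact permutation p of 0.0045 for MAP1LC3B and ATG5, which were not called. They gave 0.0089 for PIK3C3 and TAX1BP1, also not called. Over all splits, every gene whose groups do not overlap takes the lowest value, and 6.76% of all tested genes had such groups. Data were simulated for this comparison, with 200 of 23662 probes changed. Of the changed probes, 54% were recovered at a log2 change of 0.2, 98% at 0.4 and 100% at 0.8. Of the calls, 6.38% were false. The simulated noise was normal and independent between probes, without a batch effect, and changes were added in full at dim probes too. These rates may therefore not hold for the deposited values. Full values are given for every gene called and for those with another called probe, other members by role, and of the further lists the called genes and up to 3 others by smallest p; BNIP3L, TFE3, MITF, FOXO1 and FOXO3 were added after their values were seen. The members and lists were chosen with earlier results of these data known. Replicate numbers are shared by the groups, but of the 6 same-numbered pairs 1 had deviations that correlated above 0.1 (range -0.17 to 0.18), so the numbers were treated as names only. Alternatives changed the filter, batch term, block, variance model, normalization, array weights, probe choice, adjustment and arrays.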

Additional observations from a re-analysis of the deposited data

Results flagged for a closer look

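In 7 of 76 groups of 6 arrays, over the 38 tested autophagy genes, 1 array lay far from the other 5 by Dixon's test. Chance flags about 1 in 20 groups. WIPI1 had a low value of 7.29 on CYTOR LNA replicate 1, where the next array was at 7.44. MAP1LC3B had a high value of 9.24 on CYTOR LNA replicate 2, the only CYTOR LNA array of batch 1, with the next at 9.09. ATG12 was low at 8.86 on CYTOR LNA replicate 6. WIPI2 was high at 7.29 on CYTOR LNA replicate 4 and low at 7.04 on control replicate 5. BECN1 was low at 8.80 on control replicate 5 and NBR1 at 6.49 on control replicate 6. Of these genes WIPI1 alone was called, and without CYTOR LNA replicate 1 its difference was -0.34 and its limma adjusted p 2.9e-05.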

How the results depend on the processing

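ATG7 (-0.73 to -0.60), WIPI1 (-0.39 to -0.34) and MAP1LC3A (0.48 to 0.62) passed in all 25 alternatives. ATG14 lost its call within batch 2 (-0.17, limma adjusted p = 0.089) and without CYTOR LNA replicate 2 (-0.17, 0.099). The latter fit leaves only controls in batch 1, so its contrast is the one within batch 2. ULK1 did not pass within batch 1 (0.11), where an arm of 1 array makes a loss or a pass uninformative. Leaving out 1 array at a time gave 2 to 4 genes lower and 2 to 3 higher, and for CYTOR -1.14 to -1.05. Without an intensity trend 4 genes were higher, with RB1CC1 (adjusted p = 0.034) and MAP1LC3B (0.046) added. ATG5, at 0.0503, passed in 8 alternatives, among them the fit without the batch term (0.031) and the one without CYTOR LNA replicate 6 (0.046). Of the further lists 2 genes were called in all. That count was 5 without the batch term or when probes of a gene were averaged. It was 4 with the stricter filter, quantile normalization, robust variances or adjustment over 1 probe per gene, and 8 within batch 1. It was 1 without a filter, where BNIP3 was lost (0.073). Leaving out 1 array gave 1 to 4, with 1 without CYTOR LNA replicate 1, control replicate 2 or control replicate 6, and 4 without control replicate 3. The count of all tested genes higher was 494 without the batch term, 680 within batch 1 and 199 without control replicate 2, against 316. With the replicate block 3 autophagy genes were lower and 2 higher, and 2 further genes were called, of which BNIP3 was not one (adjusted p = 0.075). The sign changed in 1 or more alternatives for 13 genes, none over 0.04 in size in the main fit. With the sign changed, sizes could be larger. ATG2A was at -0.11 and ATG101 at -0.10 within batch 1, with its 1 CYTOR LNA array. No result reversed while called. The causes of these changes were not tested. With 1 CYTOR LNA array in batch 1, the number of arrays limits what the batches can show.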
